A study of Homo sapiens with 9 samples.

Results

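RNA from HT29 cells with a lentiviral knockdown of DNMT1 was compared with RNA from the Control HT29 line across all genes that passed a filter on low counts. HT29 is an established human colorectal cancer cell line. The filter kept 16660 of the 25886 genes in the count table, and the comparison uses 6 of its 9 libraries: 3 labelled DNMT1 knockdown and 3 labelled Control. The 3 libraries of the remaining group, a DNMT3B knockdown in the same line, shared the estimate of the spread between libraries and served to test where the DNMT1 knockdown differed from it. Cells of every group, Control included, grew in 1640 medium with 10% fetal bovine serum and were selected with puromycin after infection. Total RNA was depleted of ribosomal RNA before sequencing, so noncoding RNAs are measured as well as messenger RNAs. The labels and notes used here do not give the hairpin sequence, the number of clones or the insert of the Control vector. Nor do they say whether the 3 libraries of a group are separate cultures, and every p-value therefore reflects library-to-library spread that could be technical only.

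DNMT1 is the methyltransferase that copies DNA methylation onto the new strand after replication. UHRF1 recognises the hemimethylated site and brings DNMT1 to it, while DNMT3A and DNMT3B can methylate sites that carry no mark. When copying fails, methylation is diluted as cells divide. Methylated CpG-rich promoters are mostly silent, and colorectal cancer cells carry many promoters in that state. DNA methylation was not measured in the table analysed here, which holds RNA counts only.

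The targeted transcript was lower in every library labelled with its knockdown. DNMT1 read 448, 468 and 457 CPM (counts per 1000000 counted reads, scaled between libraries) in Control and 248, 249.7 and 257 CPM with the knockdown, so the groups did not overlap. With DNMT3B knockdown it read 489, 489.5 and 486 CPM. The log2 fold change against Control was -0.86 ± 0.033 (SE) with an adjusted p of 2.8e-20 in edgeR's quasi-likelihood test, and the exact two-sided permutation test of the CPM values gave p = 0.1, the smallest that 3 against 3 libraries allow. About 55.0% of the Control level therefore remained at the RNA level. DNMT3A (36.0 ± 1.0 to 37.3 ± 1.0 CPM) and DNMT3B (61.3 ± 1.2 to 64.2 ± 0.32 CPM) did not pass the test, with adjusted p = 0.43 and 0.22. Here and below, paired values are means ± SD over 3 libraries, Control before DNMT1 knockdown.

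The 6 libraries held between 23421179 and 33666224 counted reads, and a count of 3 corresponded to between 0.0891 and 0.128 CPM. The Control libraries were the deeper ones. The summed level of 12 colon epithelial markers ran from 2405 to 2505 CPM in Control and from 2532 to 2660 CPM with knockdown, with 2 markers at 0 in every Control library and 1 in every knockdown library. Of the 9 that were tested, 3 rose and 1 fell. Sums over 9 stromal markers (25.7 to 30.3 against 29.5 to 34.2 CPM), 10 leukocyte markers (18.9 to 19.9 against 19.2 to 20.5 CPM) and 7 endothelial markers (4.93 to 5.65 against 4.18 to 5.29 CPM) were low in both groups. In a bulk sample, fewer cells of a type and less RNA per cell cannot be told apart.

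Gene expression changed widely and mostly by small amounts. At a Benjamini-Hochberg adjusted p below 0.05, 6956 of the 16660 genes changed (41.8%), of which 3499 rose (21.0%) and 3457 fell (20.8%). Among the genes that changed, 55.1% differed by less than 1.2-fold and the median size was 0.24 on the log2 scale. A test against a 1.2-fold threshold called 931 genes higher (5.59%) and 313 lower (1.88%). The imbalance grew with the size of the change: 282 genes rose at least 2-fold (1.69%) and 43 fell at least 2-fold (0.258%). It also depended on abundance. Among the 1931 tested genes with a mean under 1 CPM, 223 rose and 70 fell, whereas among the 2703 genes at 100 CPM or more 622 rose and 887 fell. Rises of at least 2-fold were therefore mainly those of weakly expressed genes: 128 lay under 1 CPM, 109 between 1 and 10, 40 between 10 and 100, and 5 at 100 CPM or more. The filter asked for enough reads in the libraries of at least 1 group, so a weak gene could enter through the group where it was higher.

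The promoter windows of 6 genes that rose ranged from rich in CpG to free of it. The windows below run from 250 bases before to 50 bases after the RefSeq start in GRCh38.p14, 5′ to 3′ on the gene's own strand, with each CG dinucleotide, the site DNMT1 methylates, in capitals. CLSTN2 (calsyntenin 2, a synaptic adhesion protein) has 36 CG at chr3:139934935-139935234, plus strand. TGFB2 (a TGF-beta ligand) has 14 at chr1:218345086-218345385, plus strand. MYH13 (a myosin heavy chain of extraocular muscle) has 4 at chr17:10372957-10373256, minus strand. DHRS2 (a short-chain dehydrogenase) has 0 at chr14:23629865-23630164, plus strand. The zinc finger genes ZNF134 (21 CG, chr19:57613992-57614291, plus strand) and ZNF83 (29 CG, chr19:52690447-52690746, minus strand) stand for the chromosome 19 clusters described below and were chosen as promoter examples after their values were seen.
CLSTN2: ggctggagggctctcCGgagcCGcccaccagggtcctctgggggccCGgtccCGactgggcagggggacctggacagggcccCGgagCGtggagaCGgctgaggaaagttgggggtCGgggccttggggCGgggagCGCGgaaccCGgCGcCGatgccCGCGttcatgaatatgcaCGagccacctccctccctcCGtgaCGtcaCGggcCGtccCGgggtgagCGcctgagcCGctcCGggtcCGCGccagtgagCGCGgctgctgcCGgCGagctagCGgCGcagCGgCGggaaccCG
TGFB2: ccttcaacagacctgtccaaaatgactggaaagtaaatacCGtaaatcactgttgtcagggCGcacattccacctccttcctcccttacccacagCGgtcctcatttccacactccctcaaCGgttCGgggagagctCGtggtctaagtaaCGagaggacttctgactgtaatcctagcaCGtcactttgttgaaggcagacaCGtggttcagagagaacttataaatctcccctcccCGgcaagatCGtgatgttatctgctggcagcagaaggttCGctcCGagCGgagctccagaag
MYH13: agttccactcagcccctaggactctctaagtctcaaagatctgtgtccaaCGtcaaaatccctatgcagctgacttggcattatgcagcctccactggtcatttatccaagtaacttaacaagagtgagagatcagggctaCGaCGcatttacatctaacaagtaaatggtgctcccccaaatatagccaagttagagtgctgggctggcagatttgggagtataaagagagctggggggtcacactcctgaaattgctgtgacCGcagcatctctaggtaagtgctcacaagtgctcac
DHRS2: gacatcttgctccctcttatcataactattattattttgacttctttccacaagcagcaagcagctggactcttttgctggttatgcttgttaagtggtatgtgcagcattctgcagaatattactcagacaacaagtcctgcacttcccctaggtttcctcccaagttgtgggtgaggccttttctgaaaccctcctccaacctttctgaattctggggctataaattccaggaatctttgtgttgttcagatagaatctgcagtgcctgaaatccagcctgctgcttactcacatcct
ZNF134: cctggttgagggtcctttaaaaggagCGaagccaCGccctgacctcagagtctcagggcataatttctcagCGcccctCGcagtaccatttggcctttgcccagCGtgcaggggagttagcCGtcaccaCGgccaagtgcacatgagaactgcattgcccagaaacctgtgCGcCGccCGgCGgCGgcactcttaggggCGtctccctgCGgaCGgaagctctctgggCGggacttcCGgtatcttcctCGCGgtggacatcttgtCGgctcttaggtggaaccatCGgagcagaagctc
ZNF83: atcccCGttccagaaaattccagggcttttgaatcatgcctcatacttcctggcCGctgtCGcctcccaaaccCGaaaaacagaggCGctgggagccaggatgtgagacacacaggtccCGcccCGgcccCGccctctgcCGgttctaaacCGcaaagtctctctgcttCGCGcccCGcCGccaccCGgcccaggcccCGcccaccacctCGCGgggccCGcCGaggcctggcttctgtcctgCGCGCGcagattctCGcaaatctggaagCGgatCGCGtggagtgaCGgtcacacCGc

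The 6 genes behind these windows all rose. CLSTN2 went from 0.462 ± 0.11 to 51.4 ± 0.26 CPM, TGFB2 from 1.76 ± 0.43 to 33.5 ± 0.38 CPM and DHRS2 from 2.85 ± 0.30 to 37.0 ± 1.0 CPM. MYH13 had 6 reads in all over the Control libraries, which read 0.0895, 0.0372 and 0.0642 CPM, and the knockdown libraries read 3.10, 4.30 and 3.91 CPM. The windows of AOAH (an enzyme that deacylates bacterial lipopolysaccharide) and EHF (an epithelial ETS factor), which rose from 0.0206 ± 0.018 to 2.30 ± 0.27 CPM and from 0.128 ± 0.074 to 3.27 ± 0.57 CPM, hold 5 and 8 CG. Over all 27305 RefSeq promoter windows of this length, searched for the letters CG (the same on both strands), the median is 14, 95.8% hold at least 1, and 48.8% hold 15 or more. In the class of 10 to 100 CPM, the promoters of genes that rose at least 2-fold (33 of 40 had an entry) had a median of 20 CG against 27 for the other tested genes (6271 of 7682 had one). Over all tested genes the same comparison is void, because only 71.6% of the genes that rose at least 2-fold and 77.2% of tested genes had a promoter entry. Falls were not compared: at 10 to 100 CPM only 2 of the 4 genes that fell at least 2-fold had an entry. The lower CG count is therefore not shown to be particular to rises.

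Among genes with a mean of 100 CPM or more over the 6 libraries, ADAM19, ZFP36L1 and TIAM1 were among the largest rises. ADAM19, a membrane metalloprotease, read 78.3, 79.4 and 78.0 CPM in Control and 221, 229 and 229 CPM with knockdown (log2 1.53 ± 0.034 (SE), adjusted p = 1.7e-26, edgeR). ZFP36L1, which binds AU-rich messenger RNAs and promotes their decay, went from 215, 209 and 206 to 533, 529.8 and 567 CPM (log2 1.37 ± 0.036 (SE)). TIAM1, an exchange factor that activates the GTPase RAC, went from 84.4, 83.3 and 84.6 to 202, 194 and 190.4 CPM. Genes named for the size of their rise or fall against Control were taken only from those whose groups did not overlap. Of all 16660 tested genes, 4127 were higher and 4095 lower without overlap. In these 3 genes the knockdown libraries lay above Control by more than the whole spread within either group. PDLIM5, a PDZ and LIM domain protein of actin structures, rose from 122 ± 1.9 to 265 ± 4.1 CPM, and VCAN, the large matrix proteoglycan versican, from 70.5 ± 2.3 to 149.7 ± 3.3 CPM. CRABP2, which carries retinoic acid in the cytoplasm, rose from 100.4 ± 6.7 to 196 ± 4.4 CPM. For VCAN and TIAM1 the DNMT3B knockdown libraries stayed near Control, at 69.8 ± 2.8 CPM and 75.6 ± 2.0 CPM.

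**Figure D1:**
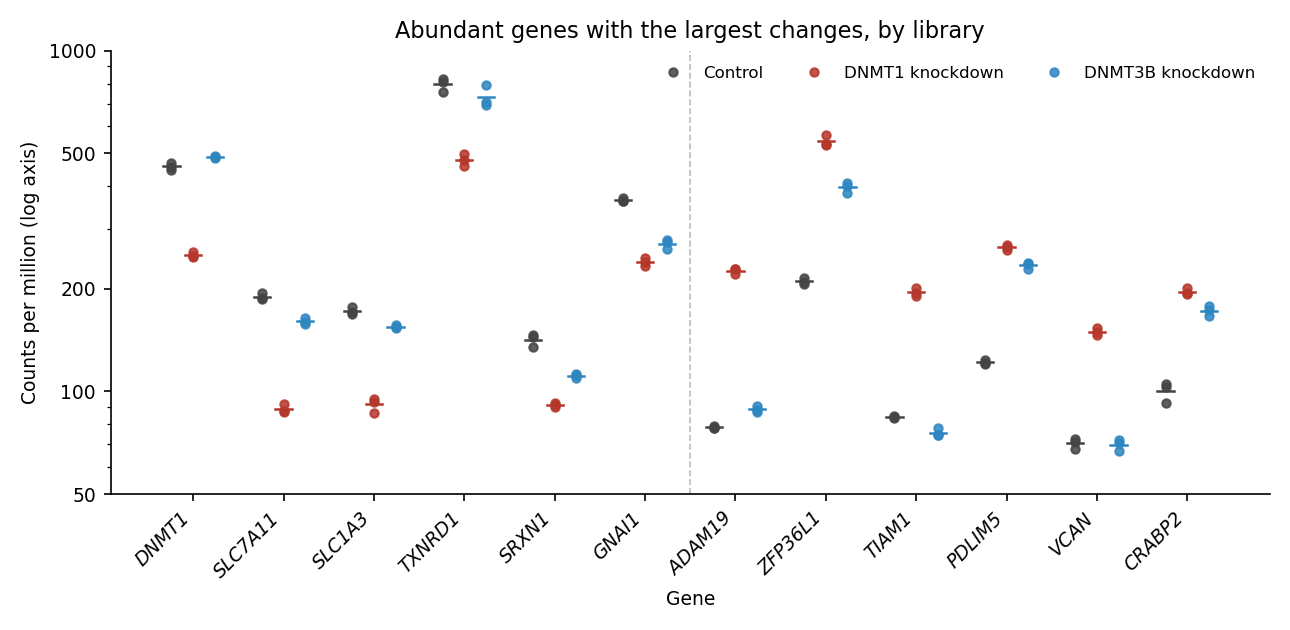
CPM on a log axis for DNMT1 and for the genes at 100 CPM or more with the largest falls and rises, by library; points are the 3 libraries of each group and short lines their means. ADAM19 sits near 78.6 CPM in Control and 226 CPM with DNMT1 knockdown. The genes beside DNMT1 were chosen from those whose points in these 2 groups do not overlap.

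Among the same abundant genes, TXNRD1, SLC1A3, SRXN1 and GNAI1 were among the largest falls after DNMT1 itself. TXNRD1, the cytosolic thioredoxin reductase, read 825, 754 and 812 CPM in Control and 497, 477 and 459 CPM with knockdown (log2 -0.74 ± 0.042 (SE), adjusted p = 2.0e-15, edgeR). SLC1A3, a glutamate and aspartate transporter, went from 177, 169 and 171 to 95.3, 86.4 and 93.1 CPM. SRXN1 (sulfiredoxin, which repairs oxidised peroxiredoxins) fell from 142 ± 5.8 to 91.4 ± 1.2 CPM and GNAI1 (an inhibitory G protein alpha subunit) from 364 ± 3.9 to 239.5 ± 6.4 CPM. Lack of overlap between the groups was again a condition for naming them. With DNMT3B knockdown TXNRD1 read 731 ± 55 CPM and SLC1A3 155 ± 1.6 CPM, and the direct comparison of the knockdowns gave log2 differences of -0.61 and -0.76.

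Genes known as targets of NRF2, the transcription factor that drives the antioxidant response, fell more often than they rose. Of 28 tested members of the list, 19 fell (67.9%, against 20.8% of all tested genes) and 4 rose (14.3%, against 21.0%). The median log2 fold change was -0.22 against -0.0025 over all tested genes, and 11 members fell by more than 1.2-fold. Members other than TXNRD1, SRXN1 and SLC7A11 are named here for their textbook roles, after their values were seen. NQO1, a quinone reductase, fell from 441 ± 13 to 314 ± 15 CPM. GCLC and GCLM, the subunits of the enzyme that begins glutathione synthesis, fell from 118 ± 2.1 to 82.4 ± 2.6 CPM and from 63.8 ± 0.72 to 39.2 ± 1.1 CPM. HMOX1, which degrades haem, fell from 47.9 ± 0.57 to 30.7 ± 1.9 CPM, and FTH1, the ferritin heavy chain, from 323 ± 12 to 234 ± 7.1 CPM. NFE2L2, the gene for NRF2 itself, fell by less, from 169 ± 2.5 to 155 ± 3.9 CPM. The members that rose included GPX4 (206 ± 6.8 to 229 ± 3.7 CPM) and ABCC3 (78.5 ± 1.4 to 89.1 ± 5.0 CPM). The count that rose was 2 without Control replicate 2 or without DNMT1 knockdown replicate 2. Against DNMT3B knockdown, 13 members were lower and 5 higher with DNMT1 knockdown, where 45.2% of all tested genes differed, 24.3% higher and 20.9% lower.

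**Figure D2:**
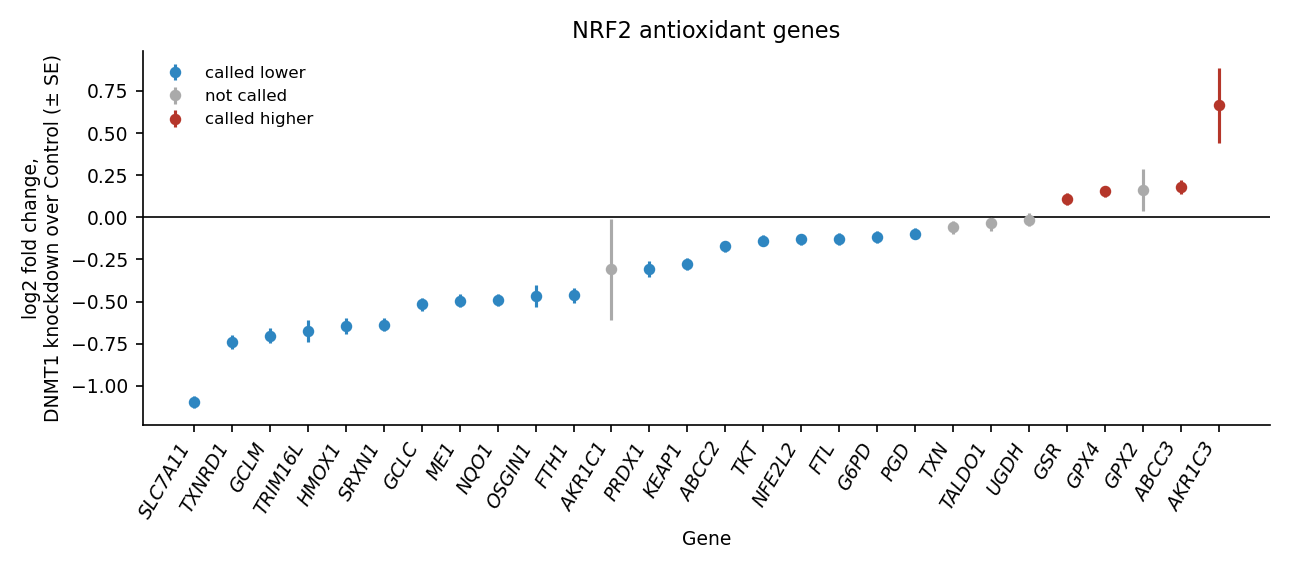
The log2 fold change of DNMT1 knockdown over Control, with its standard error, for the 28 tested genes of the NRF2 list, ordered by value and coloured by call. 19 genes lie below 0 as called falls, with SLC7A11 at -1.09 and TXNRD1 at -0.74 among the lowest.

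Amino acid transporter genes fell more often than they rose. Of 30 tested amino acid transporters 12 fell (40.0%, against 20.8% of all tested genes) and 4 rose (13.3%, against 21.0%). Their median was -0.12. SLC3A2, the heavy chain shared by several of these transporters, fell from 338 ± 15 to 234 ± 9.0 CPM. Its light chains SLC7A11 (cystine for glutamate) and SLC7A5 (large neutral amino acids) fell from 189.6 ± 4.1 to 88.8 ± 2.7 CPM and from 1565 ± 27 to 1183 ± 35 CPM, and the glutamine carrier SLC1A5 fell from 431 ± 14 to 329 ± 8.2 CPM. SLC7A5 and SLC1A5 were chosen after their values were seen. The members that rose included SLC38A3 (4.33 ± 0.23 to 7.40 ± 0.53 CPM), SLC43A2 (15.9 ± 0.27 to 21.4 ± 1.1 CPM) and SLC1A1 (22.1 ± 1.1 to 27.6 ± 0.82 CPM). The transcript named as antisense to the cystine carrier gene, SLC7A11-AS1, also fell, from 4.62 ± 0.20 to 2.38 ± 0.29 CPM, and since the strand used in counting is not given, reads of the 2 genes cannot be told apart where they overlap.

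Genes that build ribosomes and process RNA fell in larger shares than genes as a whole, by small amounts. Over all tested genes 20.8% fell and 21.0% rose. Ribosome biogenesis factors had 34 falls (61.8%) and 3 rises (5.45%) among 55 (median -0.12). Against DNMT3B knockdown 37 of them were lower and 1 higher, where 20.9% of all tested genes were lower and 24.3% higher. BYSL and NIP7, which act in the assembly of the small and large subunits, fell from 76.2 ± 3.6 to 59.9 ± 0.88 CPM and from 74.1 ± 0.13 to 56.9 ± 1.1 CPM, and the nucleolar helicase DDX21 fell from 453 ± 11 to 368 ± 8.0 CPM. UBTF, a factor of ribosomal RNA transcription, was among the exceptions and rose from 253 ± 2.7 to 288 ± 4.8 CPM. Only 1 member, NIP7, fell by more than 1.2-fold in the test against that threshold. Mitochondrial ribosomal proteins had 29 falls and 10 rises among 78 (median -0.078), with MRPS12 going from 66.6 ± 4.4 to 50.6 ± 2.7 CPM. Splicing factors had 22 falls and 5 rises among 57, and the count of rises was 2 when Control replicate 1, and 1 when Control replicate 3 or DNMT1 knockdown replicate 3, was left out, and 3 with DESeq2. HNRNPA2B1 fell from 544 ± 23 to 457 ± 3.9 CPM and HNRNPM from 334 ± 8.2 to 285 ± 8.3 CPM. Transfer RNA synthetases split more evenly, with 20 falls and 9 rises among 37: AARS1 for alanine fell from 393 ± 4.7 to 300.1 ± 4.3 CPM and MARS2, the mitochondrial methionine enzyme, from 53.6 ± 3.4 to 38.9 ± 1.8 CPM, while FARSB for phenylalanine rose from 103 ± 1.6 to 120.2 ± 5.0 CPM.

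**Figure D3:**
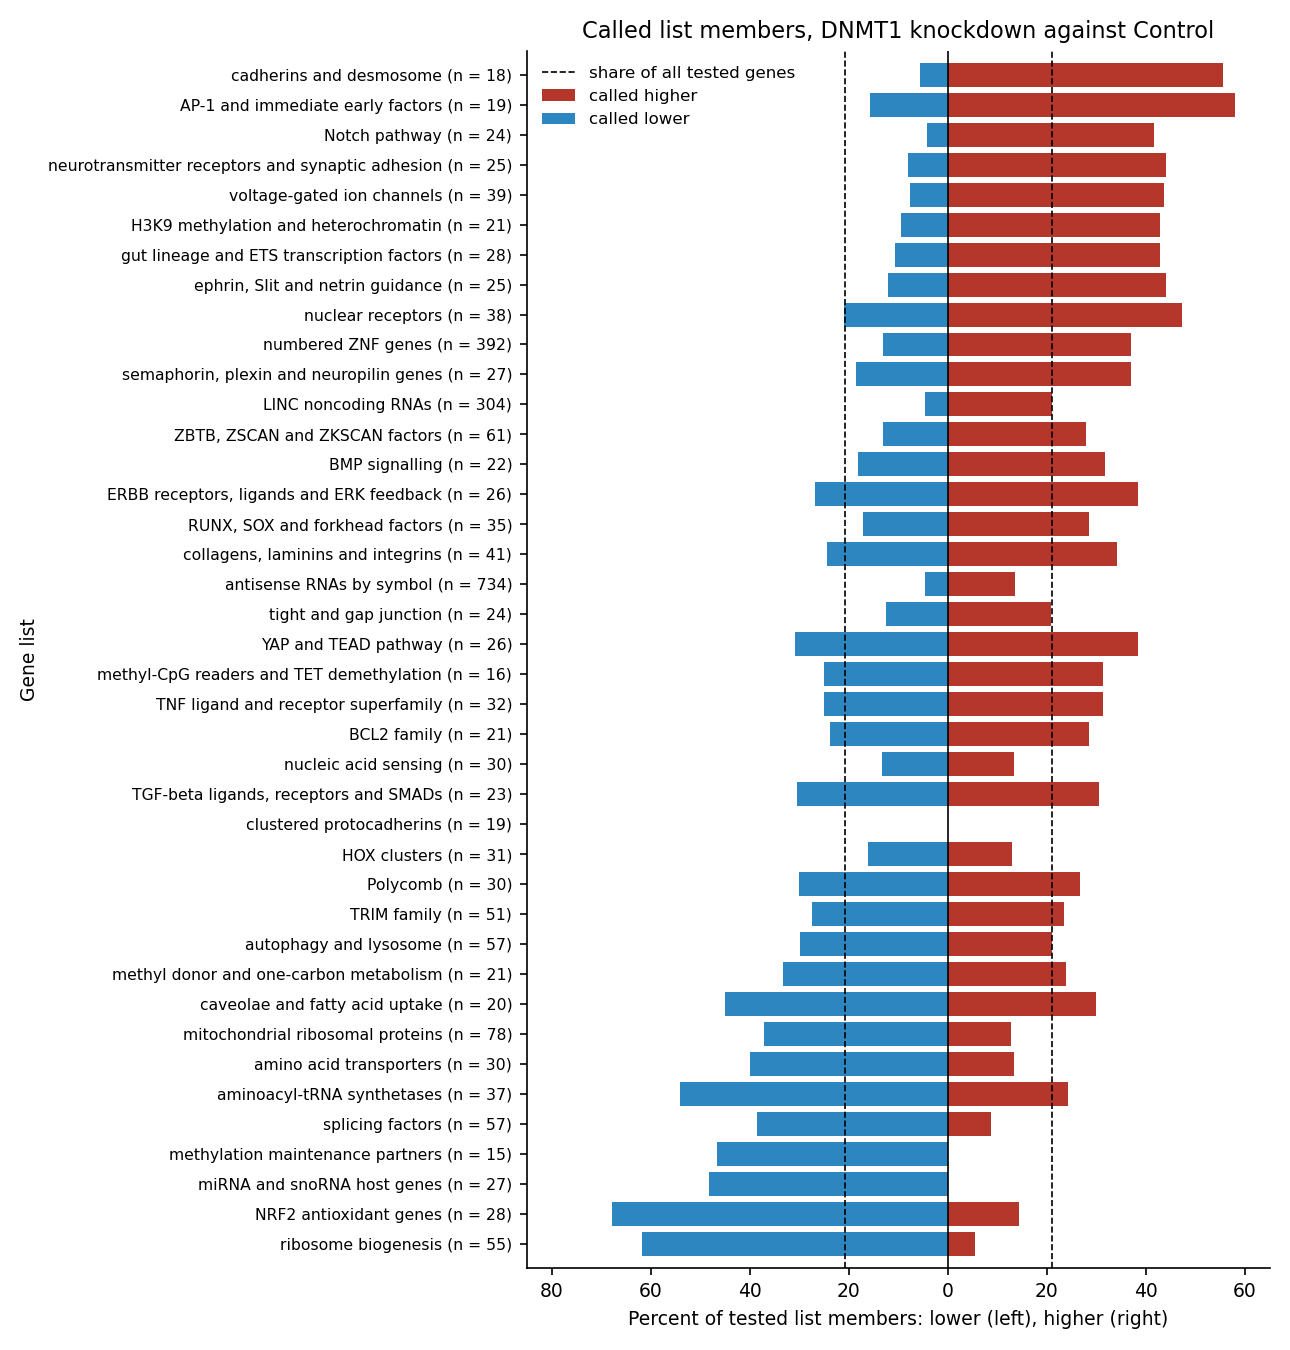
For each gene list with 15 or more tested members, the percent called higher (right, red) and lower (left, blue) with DNMT1 knockdown against Control; dashed lines mark the shares over all tested genes, 21.0% higher and 20.8% lower. Antioxidant and ribosome biogenesis genes lie at the side of falls, and cadherin, AP-1, Notch and channel genes at the side of rises.

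Of 27 tested host genes of miRNAs and small nucleolar RNAs, 13 fell in edgeR (48.1%, against 20.8% of all tested genes). In edgeR, DESeq2 or limma-voom 0 rose, where 21.0% of all tested genes rose in edgeR. At an unadjusted p below 0.05 edgeR called 1 rise, and 1 adjusted rise appeared when Control replicate 2 or DNMT1 knockdown replicate 2 was left out. SNHG12, SNHG32 and SNHG7, whose introns carry small nucleolar RNAs that guide ribosomal RNA modification, fell from 55.7 ± 0.55 to 41.7 ± 1.6 CPM, from 80.4 ± 2.2 to 60.5 ± 2.5 CPM and from 64.4 ± 2.1 to 51.3 ± 0.51 CPM. Against DNMT3B knockdown, 13 of the hosts were lower and 1 higher, where 20.9% of all tested genes were lower and 24.3% higher.

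Among genes of intermediate abundance, some rises were larger. MAML2, a coactivator of the Notch complex, read 3.13, 3.98 and 3.59 CPM in Control and 19.8, 21.4 and 21.7 CPM with knockdown (log2 2.56 ± 0.085 (SE), adjusted p = 1.0e-21, edgeR). Rises in this range were also ranked only among genes without overlap between the groups. In the DNMT3B knockdown libraries MAML2 read 9.81 ± 0.66 CPM, lower than with DNMT1 knockdown in the direct test (log2 difference 1.09 ± 0.074 (SE), adjusted p = 1.4e-13, edgeR).

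Falls in the same range of abundance were smaller. NAV3, a protein of growing microtubule ends, read 89.2, 93.4 and 81.2 CPM in Control and 42.6, 40.3 and 42.3 CPM with knockdown (log2 -1.07 ± 0.047 (SE), adjusted p = 1.7e-18, edgeR). GLIPR1, a secreted-protein family member, fell from 32.8 ± 2.6 to 16.0 ± 0.74 CPM. EID3, a subunit of the SMC5/6 complex, fell from 17.9 ± 1.6 to 9.38 ± 0.84 CPM, and UPP1, which cleaves uridine, from 43.0 ± 3.5 to 23.4 ± 0.53 CPM. These falls were likewise ranked only among genes without overlap between the groups. NRP1, given below with the guidance genes, also lies in this range and fell by more than the genes named here. With DNMT3B knockdown NAV3 read 83.9 ± 3.4 CPM and UPP1 41.0 ± 1.8 CPM. Among the weakest genes that fell, AMBP, the precursor of alpha-1-microglobulin, went from 1.62 ± 0.088 to 0.714 ± 0.26 CPM.

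Some of the largest rises lay next to each other on the chromosome, a pattern noticed and described after the values were seen, and so given without a test. Runs were taken as 3 or more genes that rose at least 2-fold, each starting within 500 kb of the previous one. There were 11 runs, which held 47 of the 280 placed genes, and 4 of them lay on chromosome 19. Each run begins and ends at such rises, so counts of rises inside runs are partly set by this choice. On chromosome 17, from 10300865 to 10549658, lie the skeletal muscle myosin heavy chains MYH13, MYH8, MYH4 and MYH2, which rose. They had 6, 5, 2 and 0 reads over the Control libraries, so they passed the low-count filter through the libraries where they were higher, and no count of rises over this region is read as a pattern. MYH4 read 0.0298, 0.0372 and 0 CPM in Control and 0.908, 0.682 and 0.914 CPM with knockdown, and MYH2 had no count in Control and read 0.702, 0.511 and 0.748 CPM with knockdown. With DNMT3B knockdown they read 0.141 ± 0.045 CPM and 0.125 ± 0.079 CPM. These myosins are close copies in sequence, so reads could be shared among them.

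Another run on chromosome 17, from 40977715 to 41489910, held 10 tested genes of the type I hair keratin and keratin-associated region. The 8 that rose are the genes that define the run. KRT32 rose from 2.63 ± 0.68 to 6.97 ± 0.51 CPM, KRT35 from 1.53 ± 0.17 to 4.05 ± 0.27 CPM, KRT36 from 0.908 ± 0.092 to 2.45 ± 0.47 CPM, KRT37 from 0.773 ± 0.13 to 2.86 ± 0.29 CPM and KRT38 from 0.713 ± 0.11 to 1.87 ± 0.15 CPM, all keratins of hair and nail. With DNMT3B knockdown KRT32, KRT35, KRT36, KRT37 and KRT38 averaged 5.40, 3.39, 2.16, 1.80 and 1.15 CPM, each above Control. The direct test called KRT32, KRT37 and KRT38 higher with DNMT1 knockdown but not KRT35 or KRT36 (adjusted p = 0.14 and 0.37, edgeR). The uncharacterised LOC100505782 rose from 1.29 ± 0.22 to 4.11 ± 0.49 CPM. The keratin-associated KRTAP2-3 rose from 1.76 ± 0.37 to 4.08 ± 0.66 CPM and was higher still with DNMT3B knockdown, at 9.59 ± 1.9 CPM (log2 difference -1.26, adjusted p = 1.3e-09, edgeR). KRT40, at the far end, rested on 14 reads in Control and 29 with knockdown. By chromosome, 11 of 17 tested KRT symbols on chromosome 17 rose and 1 fell, and 4 of 8 on chromosome 12 rose and 0 fell. The 11 include the keratin rises that define this run, so they are not separate from it. The 4 include KRT86 and KRT7-AS, which define a run on chromosome 12. Over all tested genes 21.0% rose and 20.8% fell.

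On the long arm of chromosome 1, TGFB2 (218345336 to 218444619) was followed by LYPLAL1, LYPLAL1-AS1 and ZC3H11B among tested genes, and these rose. LYPLAL1-AS1 and ZC3H11B had 13 and 26 reads over the Control libraries, so they too passed the filter through the libraries where they were higher. ZC3H11B, a zinc finger gene copy, read 0.417, 0.149 and 0.257 CPM in Control and 7.30, 7.20 and 7.81 CPM with knockdown. LYPLAL1-AS1 read 0.119, 0.149 and 0.161 CPM in Control and 5.53, 5.29 and 5.15 CPM with knockdown, and overlaps LYPLAL1 at one end, where reads of the 2 cannot be told apart without strand. LYPLAL1, a lysophospholipase-like gene, rose by less, from 17.4 ± 1.1 to 22.1 ± 1.1 CPM. RRP15, on the other side of TGFB2, read 35.9 ± 0.40 to 35.7 ± 1.6 CPM and was not called (adjusted p = 0.91, edgeR), and EPRS1, a transfer RNA synthetase gene past ZC3H11B, fell from 298 ± 1.4 to 274 ± 9.2 CPM (adjusted p = 0.0040, edgeR). CLSTN2-AS1, an antisense transcript on chromosome 3 within the span of CLSTN2, rose with it, from 0.0430 ± 0.015 to 1.35 ± 0.20 CPM, and reads of these 2 cannot be told apart without strand either.

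The run on chromosome 19 from 17402939 to 18255362 had 16 rises and 0 falls among 26 tested genes, and 4 of the rises define it. Over all tested genes of chromosome 19, 30.4% rose and 18.1% fell. SLC5A5, the sodium and iodide symporter, rose from 1.32 ± 0.28 to 8.11 ± 0.59 CPM and JAK3, a cytokine receptor kinase, from 6.97 ± 0.27 to 11.6 ± 0.60 CPM. On chromosome 1, DHRS3, which reduces retinaldehyde, rose from 17.5 ± 0.013 to 44.7 ± 1.8 CPM. It lies in a run where 4 of 15 tested genes rose, 3 of them defining the run, and 2 fell.

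Members of the TGF-beta pathway moved in both directions. TGF-beta ligands signal through paired receptors to SMAD2 and SMAD3, and SMAD6 and SMAD7 inhibit the pathway. Among 23 tested genes 7 rose and 7 fell, 30.4% each, where 21.0% of all tested genes rose and 20.8% fell. Of the ligands, TGFB2 read 1.88, 2.12 and 1.28 CPM in Control and 33.4, 33.2 and 33.9 CPM with knockdown, while TGFB1 fell from 109 ± 3.0 to 90.1 ± 2.0 CPM. LTBP3, which holds latent ligand in the matrix, rose from 176 ± 6.2 to 234 ± 13 CPM, and the receptor ACVR2B fell from 129 ± 3.9 to 111 ± 1.2 CPM. The transducer SMAD3 rose from 148 ± 3.3 to 229 ± 4.3 CPM and the inhibitor SMAD7 fell from 19.2 ± 0.50 to 13.0 ± 0.34 CPM. The direct test found 16 members higher and 5 lower than with DNMT3B knockdown, SMAD7 among the former (log2 difference 0.96). Over all tested genes 24.3% were higher and 20.9% lower in that test.

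Of 22 tested BMP genes 7 rose (31.8%, against 21.0% of all tested genes) and 4 fell (18.2%, against 20.8%), and all 7 rises passed the test against 1.2-fold. ID3, a direct target of BMP signalling, rose from 48.0 ± 0.85 to 67.9 ± 0.74 CPM, and SMAD6, the inhibitor of the branch, from 12.4 ± 0.59 to 22.0 ± 0.80 CPM. BMP1, a procollagen protease despite its name, rose from 34.6 ± 0.37 to 48.8 ± 1.3 CPM. SMURF2, a ubiquitin ligase for SMADs and receptors, fell from 428 ± 3.7 to 351 ± 11 CPM, and the BMP transducer SMAD9 from 13.5 ± 0.28 to 10.1 ± 0.20 CPM. With DNMT3B knockdown SMAD6 read 7.21 ± 0.27 CPM, below Control, and the difference between the knockdowns was 1.61 on the log2 scale.

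Notch genes rose more often than they fell. Among 24 tested members 10 rose (41.7%, against 21.0% of all tested genes) and 1 fell (4.17%, against 20.8%). The rises numbered only 6 without Control replicate 1. The ligand JAG1 rose from 65.2 ± 1.6 to 104 ± 6.8 CPM and the coactivator MAML2 as given above. DTX3L, a ubiquitin ligase of the Deltex family, rose from 32.8 ± 0.44 to 42.9 ± 0.84 CPM. The ligand DLL4 fell from 3.14 ± 0.12 to 2.12 ± 0.26 CPM.

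The YAP and TEAD list split, with 10 rises (38.5%, against 21.0% of all tested genes) and 8 falls (30.8%, against 20.8%) among 26. TEAD1, the DNA-binding partner of YAP, rose from 209 ± 4.6 to 315 ± 4.7 CPM and F3 (tissue factor) from 16.6 ± 0.31 to 35.1 ± 0.45 CPM. The target CCN2 fell from 9.34 ± 0.45 to 4.12 ± 0.25 CPM, AMOTL2 from 117 ± 1.4 to 97.0 ± 3.8 CPM and AJUBA from 80.9 ± 3.6 to 63.4 ± 1.8 CPM. Genes of ERBB receptors, ligands and ERK feedback were also mixed, 10 rises (38.5%) against 7 falls (26.9%) among 26. DUSP4, a nuclear phosphatase that inactivates ERK, rose from 149 ± 0.73 to 280.5 ± 3.3 CPM and the receptor MET from 185 ± 3.0 to 304 ± 9.0 CPM, while the ligands EREG and HBEGF fell from 477 ± 14 to 367 ± 9.0 CPM and from 8.44 ± 0.45 to 6.33 ± 0.63 CPM. SPRY4, a feedback inhibitor, fell from 354 ± 5.1 to 301 ± 7.1 CPM.

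Immediate early transcription factors rose in 11 of 19 cases (57.9%) and fell in 3 (15.8%), with a median of 0.15. Over all tested genes 21.0% rose and 20.8% fell. KLF4, a factor of differentiated gut epithelium, read 25.6, 23.9 and 24.3 CPM in Control and 55.1, 54.8 and 55.8 CPM with knockdown. FOSL2 rose from 66.3 ± 1.8 to 88.3 ± 2.0 CPM and NR4A2 from 24.8 ± 1.2 to 34.4 ± 1.4 CPM, while FOSL1 fell from 262 ± 12 to 219.8 ± 12 CPM and SRF from 161 ± 2.0 to 137 ± 3.7 CPM. In the direct test 12 members were lower than with DNMT3B knockdown and 3 higher, against 20.9% and 24.3% of all tested genes. FOSL1 is an example, at 368 ± 8.1 CPM with DNMT3B knockdown.

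Cadherin and desmosome genes rose more often than they fell. Of 18 tested cadherin and desmosome genes 10 rose (55.6%, against 21.0% of all tested genes) and 1 fell (5.56%, against 20.8%). Their median was 0.22. CDH1, the cadherin of epithelial junctions, rose from 147 ± 3.0 to 182 ± 4.6 CPM and JUP (plakoglobin), which links cadherins to the cytoskeleton, from 439 ± 9.6 to 585 ± 18 CPM. CDH15, a cadherin of muscle, rose from 2.10 ± 0.25 to 5.36 ± 0.62 CPM. CTNNB1 (beta-catenin) was the member that fell, from 409 ± 16 to 354 ± 13 CPM. The colon epithelial markers, which include CDH1, were also higher in sum with knockdown, as given above, and the part this has in the list was not tested. Against DNMT3B knockdown, 13 members were higher and 1 lower, where 24.3% of all tested genes were higher and 20.9% lower. Tight and gap junction genes stayed near the background, with 5 rises and 3 falls among 24: TJP1 rose from 259.6 ± 7.1 to 296 ± 12 CPM and the connexin GJB2 from 31.9 ± 1.2 to 40.0 ± 1.4 CPM, while OCLN (occludin) fell from 48.6 ± 0.36 to 41.3 ± 2.8 CPM and CLDN12 from 48.3 ± 2.3 to 36.3 ± 0.62 CPM.

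In the matrix list 14 of 41 genes rose (34.1%, against 21.0% of all tested genes) and 10 fell (24.4%, against 20.8%). The integrin subunits ITGA6 and ITGB4, which pair with each other in hemidesmosomes, rose from 113 ± 2.1 to 184 ± 1.1 CPM and from 406 ± 4.8 to 622 ± 19.6 CPM. LAMA4, a laminin chain of vessels and muscle, read 3.82, 4.25 and 3.88 CPM in Control and 19.9, 17.3 and 19.7 CPM with knockdown. COL12A1 fell from 113 ± 2.5 to 84.0 ± 3.0 CPM, COL7A1, the collagen of anchoring fibrils, from 14.0 ± 1.2 to 9.73 ± 0.85 CPM, and COL4A4 from 32.8 ± 1.4 to 26.2 ± 1.2 CPM. With DNMT3B knockdown ITGA6 read 123 ± 1.3 CPM and ITGB4 389 ± 13 CPM.

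Among mucin and goblet-cell genes more rose than fell. Of 21 listed genes 9 were tested, and 5 of these rose and 0 fell, where 21.0% of all tested genes rose and 20.8% fell. The secreted mucin MUC2 and the trefoil factors were among those not tested. MUC3A, a membrane mucin of the intestine, rose from 18.0 ± 0.56 to 27.7 ± 1.8 CPM and MUC20 from 3.73 ± 0.28 to 5.74 ± 0.75 CPM. Epithelial keratins rose in 7 of 14 tested cases and fell in 1. KRT23 rose from 17.3 ± 0.84 to 26.7 ± 1.5 CPM and KRT80 from 7.81 ± 0.34 to 11.8 ± 0.34 CPM. KRT7 rose from 1.37 ± 0.073 to 2.72 ± 0.14 CPM. The main keratins of colon cells, KRT8 (1004 ± 31 to 1069.8 ± 35 CPM) and KRT18 (477 ± 11 to 495 ± 10.4 CPM), were not called. Genes of caveolae and fatty acid uptake fell more often, 9 of 20, than they rose (6). The scavenger receptor CD36 fell from 3.58 ± 0.23 to 0.683 ± 0.060 CPM, whereas ACSL5, which activates fatty acids in the intestine, rose from 302 ± 6.4 to 441 ± 2.9 CPM.

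Genes of axon guidance, whose products also steer epithelial and vascular cells, were raised at several points. Of 25 tested ephrin, Slit and netrin genes 11 rose (44.0%, against 21.0% of all tested genes) and 3 fell (12.0%, against 20.8%). The ligand EFNB2 rose from 55.4 ± 2.9 to 78.9 ± 1.2 CPM, its receptor EPHB2 from 29.7 ± 1.1 to 39.6 ± 2.1 CPM and the netrin receptor UNC5A from 5.15 ± 0.75 to 9.39 ± 0.59 CPM, while the receptor EPHA2 fell from 209 ± 5.8 to 186 ± 3.8 CPM. Among 27 semaphorin, plexin and neuropilin genes 10 rose (37.0%) and 5 fell (18.5%). The secreted ligand SEMA3A read 17.0, 16.5 and 15.5 CPM in Control and 50.7, 48.4 and 46.4 CPM with knockdown. Its receptor NRP1 fell from 132 ± 2.3 to 31.9 ± 0.27 CPM and read 28.9 ± 1.9 CPM with DNMT3B knockdown, and PLXNB2 rose slightly, from 449.9 ± 7.6 to 518 ± 11 CPM.

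Neuronal genes that HT29 cells express at low levels were mostly higher when they changed. Of 25 tested neurotransmitter receptor and synaptic adhesion genes, out of 44 listed, 11 rose (44.0%) and 2 fell (8.0%). The shares over all tested genes were 21.0% and 20.8%. GRIN2B, an NMDA receptor subunit, read 0.984, 1.34 and 1.25 CPM in Control and 8.30, 8.61 and 7.90 CPM with knockdown, and GRIK4, a kainate receptor subunit, rose from 0.739 ± 0.10 to 3.09 ± 0.11 CPM. CHRNB1, of the muscle acetylcholine receptor, fell from 21.4 ± 1.4 to 16.6 ± 0.42 CPM. Voltage-gated channels had 17 rises and 3 falls among 39, the falls being 1 without DNMT1 knockdown replicate 2 or with DESeq2. KCND3 (potassium) rose from 1.95 ± 0.22 to 5.70 ± 0.50 CPM and HCN4 (the pacemaker current) from 4.65 ± 0.27 to 9.41 ± 0.61 CPM, and CACNB4, a calcium channel subunit, fell from 8.81 ± 0.43 to 4.94 ± 0.52 CPM. Members reached the tested set only when some group had enough reads, so these counts describe the 25 and 39 genes and not their families. Of 53 listed clustered protocadherins 19 were tested, and 0 rose and 0 fell in edgeR, as with DESeq2 and limma-voom. At an unadjusted p below 0.05 edgeR called 1, and there was 1 adjusted call, a rise, when Control replicate 1, when Control replicate 2 or when DNMT1 knockdown replicate 3 was left out. The median over the tested protocadherins was 0.14, and their mean levels ran from 0.244 to 14.1 CPM.

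Transcription factors of the gut and the ETS family rose in 12 of 28 cases (42.9%) and fell in 3 (10.7%), or in 1 without DNMT1 knockdown replicate 3. Over all tested genes 21.0% rose and 20.8% fell. ELF3, of the same ETS branch as EHF, rose from 49.4 ± 1.1 to 82.6 ± 1.6 CPM, ETV6 from 34.2 ± 1.3 to 47.0 ± 0.71 CPM, and EHF read 0.209, 0.112 and 0.0642 CPM in Control and 3.10, 2.81 and 3.91 CPM with knockdown. RUNX, SOX and forkhead genes had 10 rises (28.6%) and 6 falls (17.1%) among 35. The falls were 3 without Control replicate 1 and 2 without DNMT1 knockdown replicate 2. SOX4 rose from 671 ± 3.8 to 994 ± 6.5 CPM, FOXC1 from 47.5 ± 1.6 to 74.8 ± 2.2 CPM and RUNX2, a factor of bone formation, from 2.69 ± 0.58 to 18.5 ± 1.6 CPM, and FOXD1 fell from 25.0 ± 1.5 to 19.2 ± 0.98 CPM. Of 31 tested HOX genes 4 rose (12.9%) and 5 fell (16.1%), against 21.0% and 20.8% of all tested genes. HOXB8, HOXB5 and HOXB6, neighbours in the HOXB cluster, were among the rises (HOXB8 from 6.72 ± 0.50 to 11.1 ± 0.68 CPM), and HOXA10 and HOXA3 of the HOXA cluster among the falls (HOXA10 from 36.9 ± 2.0 to 28.5 ± 0.58 CPM).

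Nuclear receptors had 18 rises (47.4%, against 21.0% of all tested genes) and 8 falls (21.1%, against 20.8%) among 38. NR2F2, a regulator of mesenchyme and vessels, rose from 111 ± 0.86 to 181 ± 7.0 CPM together with its neighbour NR2F2-AS1 (from 5.69 ± 0.47 to 9.98 ± 0.90 CPM). PPARG, a regulator of fat and gut differentiation, rose from 38.2 ± 0.80 to 53.3 ± 3.6 CPM and the clock component NR1D1 from 36.8 ± 1.7 to 58.7 ± 3.6 CPM. NR5A2, a receptor of gut and liver, read 122, 124 and 121 CPM in Control and 70.4, 69.1 and 70.1 CPM with knockdown. With DNMT3B knockdown it read 69.7 ± 1.6 CPM, a difference of 0.0030 ± 0.038 (SE), adjusted p = 0.96, edgeR. NR2F1 and its neighbour NR2F1-AS1 fell, from 163 ± 3.0 to 131 ± 3.4 CPM and from 37.0 ± 0.80 to 28.9 ± 2.6 CPM. Where an antisense gene overlaps its partner, the 2 cannot be told apart without strand.

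Partners of DNMT1 in copying methylation fell or did not pass the test. Of 15 tested partners 7 fell (46.7%) and 0 rose, where 20.8% of all tested genes fell and 21.0% rose. PCNA, the sliding clamp of replication, fell from 127 ± 5.0 to 98.3 ± 5.9 CPM, HELLS, a remodeller needed for methylation of repeats, from 115 ± 1.2 to 95.4 ± 5.4 CPM, and UHRF2 from 59.2 ± 1.1 to 50.9 ± 0.81 CPM. UHRF1 fell slightly, from 246 ± 8.3 to 224 ± 3.6 CPM. Methyl-CpG readers and the TET branch, which removes the mark, had 5 rises and 4 falls among 16. TET1 rose from 29.9 ± 0.57 to 38.1 ± 2.2 CPM and TET2 from 80.3 ± 1.8 to 89.4 ± 3.0 CPM, TDG, the glycosylase that acts after TET enzymes, fell from 48.0 ± 0.13 to 38.6 ± 1.2 CPM, and the reader MBD3 fell from 196 ± 9.4 to 176 ± 5.9 CPM. In the metabolism of methyl donors 5 of 21 genes rose and 7 fell. Methionine synthase (MTR) rose from 111 ± 4.4 to 128 ± 5.0 CPM, MTHFD2, a mitochondrial folate enzyme, fell from 333 ± 10.3 to 245 ± 9.6 CPM, and MTAP, which salvages methionine, from 362 ± 6.3 to 289 ± 11 CPM.

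Genes of repressive histone marks changed in small steps. H3K9 methylation genes had 9 rises and 2 falls among 21, and the falls were 1 without Control replicate 1, without Control replicate 3 and under other settings because MPHOSPH8 lost its call. KDM3A, which removes H3K9 methylation, rose from 97.3 ± 1.4 to 124 ± 2.8 CPM, EHMT1, which adds it, from 140.1 ± 4.8 to 160.1 ± 6.3 CPM, and TASOR, of the HUSH silencing complex, from 101 ± 6.3 to 116 ± 1.3 CPM, while CBX3, a heterochromatin protein, fell from 163 ± 4.6 to 148 ± 4.2 CPM. Polycomb genes had 8 rises (26.7%, against 21.0% of all tested genes) and 9 falls (30.0%, against 20.8%) among 30. JARID2, which guides Polycomb complex PRC2, rose from 81.0 ± 2.4 to 115 ± 2.9 CPM and PHC2 from 230.0 ± 3.4 to 309 ± 8.7 CPM, while SUZ12, a core subunit of PRC2, fell from 136 ± 4.8 to 108 ± 0.76 CPM and PHF19 from 70.9 ± 1.5 to 55.9 ± 0.33 CPM. JARID2 was also higher than with DNMT3B knockdown, which gave 70.7 ± 2.3 CPM (log2 difference 0.70).

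Genes of cell death and immunity had no common direction. In the BCL2 family 6 of 21 rose (28.6%) and 5 fell (23.8%), where 21.0% of all tested genes rose and 20.8% fell. The death-promoting BCL2L11 and BMF rose from 64.7 ± 0.36 to 82.9 ± 1.3 CPM and from 3.08 ± 0.18 to 4.73 ± 0.31 CPM, whereas PMAIP1 (NOXA) fell from 55.0 ± 1.2 to 39.9 ± 1.6 CPM and the survival factor MCL1 from 232 ± 8.5 to 195 ± 3.6 CPM. In the TNF superfamily 10 of 32 rose (31.25%) and 8 fell (25.0%). The rises were 6 when only genes with at least 1 CPM in 3 libraries were tested. The TRAIL receptors TNFRSF10A, TNFRSF10D and TNFRSF10B, which are neighbours in the genome, fell from 80.2 ± 1.5 to 58.0 ± 2.3 CPM, from 93.4 ± 2.5 to 74.8 ± 2.1 CPM and from 154 ± 2.2 to 133 ± 4.8 CPM, and EDAR rose from 2.91 ± 0.12 to 5.13 ± 0.41 CPM. Nucleic acid sensing genes were below the background in both directions, with 4 rises and 4 falls among 30: MAVS, the mitochondrial adaptor, rose from 437 ± 8.4 to 497 ± 12 CPM and IFIH1, a sensor of double-stranded RNA, fell from 18.8 ± 0.44 to 16.0 ± 0.53 CPM.

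TRIM genes, ubiquitin ligases of which several restrict viruses, had 12 rises (23.5%) and 14 falls (27.5%) among 51. These shares were near the 21.0% and 20.8% of all tested genes. TRIM5 rose from 15.1 ± 0.55 to 22.9 ± 0.54 CPM and TRIM16L, also on the NRF2 list, fell from 21.4 ± 1.7 to 13.4 ± 0.36 CPM. Autophagy and lysosome genes had 12 rises (21.1%) and 17 falls (29.8%) among 57. ATG12, which is conjugated to ATG5 as vesicles form, rose from 67.1 ± 3.3 to 89.5 ± 3.9 CPM and NPC2, a lysosomal cholesterol carrier, from 44.5 ± 2.5 to 62.7 ± 0.31 CPM, while the protease CTSL fell from 47.3 ± 3.3 to 27.4 ± 2.1 CPM and the cargo receptor SQSTM1 from 405 ± 8.2 to 317 ± 7.4 CPM.

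Noncoding RNAs were read against the shares of weak genes. Of 304 tested LINC genes, out of 1753 in the table, 64 rose (21.1%) and 14 fell (4.61%), the falls being 8 with libraries thinned to equal depth and 7 with DESeq2. LINC00673 rose from 16.3 ± 0.32 to 29.2 ± 0.10 CPM, LINC01910 from 2.97 ± 0.32 to 6.86 ± 0.50 CPM and LINC00861 from 15.7 ± 0.90 to 26.6 ± 1.5 CPM, and LINC00640 fell from 3.00 ± 0.099 to 1.45 ± 0.15 CPM. Of 734 tested genes named as antisense RNAs, 100 rose (13.6%) and 34 fell (4.63%), or 58 and 17 with DESeq2. Among all tested genes under 1 CPM 11.5% rose and 3.63% fell, so the antisense shares were near those of weak genes in general. The LINC share of rises lay above the 11.5% of genes under 1 CPM. It was near the 19.9% of genes at 1 to 10 CPM and the 21.0% of all tested genes. Host genes of small RNAs, given above, had falls and no rises.

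Zinc finger genes of chromosome 19 rose more often than they fell. Most KRAB zinc finger proteins, which bind DNA and recruit the corepressor TRIM28, are encoded in tandem clusters there. Of 392 tested numbered ZNF genes 145 rose and 51 fell, and by place 72 of 162 on chromosome 19 rose and 17 fell, against 73 and 34 of 230 elsewhere. Chromosome 19 as a whole leaned the same way, with 30.4% of 1104 tested genes higher and 18.1% lower against 20.4% and 21.1% of 15406 genes on other chromosomes. Without ZNF genes its shares were 28.0% and 19.4%. TRIM28 itself was not called (1140.4 ± 35 to 1163 ± 38 CPM).

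Clusters were taken as stretches of at least 5 tested ZNF genes with gaps under 1 Mb, which gave 9, numbered in order along the chromosome. The last cluster, chr19:57191500-58489533, had 27 rises (73.0%, against 21.0% of all tested genes) and 0 falls (against 20.8%) among 37 ZNF genes. The median of their mean levels went from 9.03 CPM in Control to 13.7 CPM with DNMT1 knockdown and 10.6 CPM with DNMT3B knockdown. In the direct test 24 of the 37 were higher with DNMT1 knockdown and 0 lower, against 24.3% and 20.9% of all tested genes. The individual genes named here were chosen after their values were seen, apart from ZNF83, ZNF134 and ZNF525. ZNF134 read 1.46, 1.53 and 1.86 CPM in Control and 9.74, 9.93 and 9.22 CPM with knockdown, and ZNF211 read 0.895, 0.559 and 0.835 and 4.46, 4.09 and 4.24 CPM. Their neighbours ZNF154 and ZNF671 rose from 5.35 ± 0.65 to 11.1 ± 0.71 CPM and from 2.36 ± 0.050 to 5.23 ± 0.84 CPM. Of 14 tested genes of other kinds in the same interval 8 rose, A1BG among them (from 0.345 ± 0.089 to 0.866 ± 0.23 CPM), and 1 fell. The 34 ZNF genes with a promoter entry hold between 11 and 35 CG, with a median of 20.5, the ZNF134 window printed above among them.

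The seventh cluster, chr19:51571283-53458261, had 18 rises (72.0%, against 21.0% of all tested genes) and 1 fall (4.0%, against 20.8%) among 25 ZNF genes. Its median gene was at 11.5 CPM in Control and 13.1 CPM with knockdown. ZNF83 read 3.73, 3.58 and 3.72 CPM in Control and 13.4, 12.0 and 11.6 CPM with knockdown, and ZNF320 read 6.14, 6.74 and 5.87 and 16.0, 16.4 and 16.2 CPM. With DNMT3B knockdown ZNF83 and ZNF320 averaged 8.28 and 9.32 CPM, each between Control and DNMT1 knockdown. LOC122539214, whose span lies inside that of ZNF83, rose from 0.876 ± 0.23 to 6.91 ± 0.23 CPM, and reads of the 2 genes may be shared. ZNF525 was the member that fell, from 13.4 ± 0.47 to 7.51 ± 0.31 CPM. The direct test found 15 members higher and 1 lower than with DNMT3B knockdown, against 24.3% and 20.9% of all tested genes. Close paralogs share sequence in these clusters, so counts of single members are uncertain.

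In the sixth cluster, chr19:43530835-45076478, 0 of 18 rose and 6 fell (33.3%), or 1 rose without DNMT1 knockdown replicate 2. Over all tested genes 21.0% rose and 20.8% fell. The median gene of the sixth went from 7.98 to 6.67 CPM, with 5.54 CPM after DNMT3B knockdown. The third, chr19:21020657-21767579, had 5 rises and 0 falls among 7. The first had 6 rises and 1 fall among 13, the eighth 4 and 1 among 9, the second 4 and 2 among 14, and the fourth 1 and 0 among 5. In the fifth more fell than rose, 3 against 2 of 13 (median log2 fold change -0.11). Calls in these small clusters moved with single libraries. The rise in the fourth was lost without Control replicate 2 or 3 or DNMT1 knockdown replicate 1 or 3. The fifth had 1 rise without Control replicate 2 or 3 or DNMT1 knockdown replicate 1 or 2. The second had 2 rises without Control replicate 2 or 3 or DNMT1 knockdown replicate 1, and its falls were 0 without Control replicate 1 and 1 without Control replicate 3 or DNMT1 knockdown replicate 2 or 3. The fall in the eighth was lost without Control replicate 3 or DNMT1 knockdown replicate 1. The median window held 19 CG in the sixth and 20.5 in the last. Outside the numbered ZNF genes, ZBTB, ZSCAN and ZKSCAN factors had 17 rises and 8 falls among 61, the falls being 5 without Control replicate 1. ZKSCAN1 rose from 153 ± 0.68 to 187 ± 2.1 CPM.

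**Figure D4:**
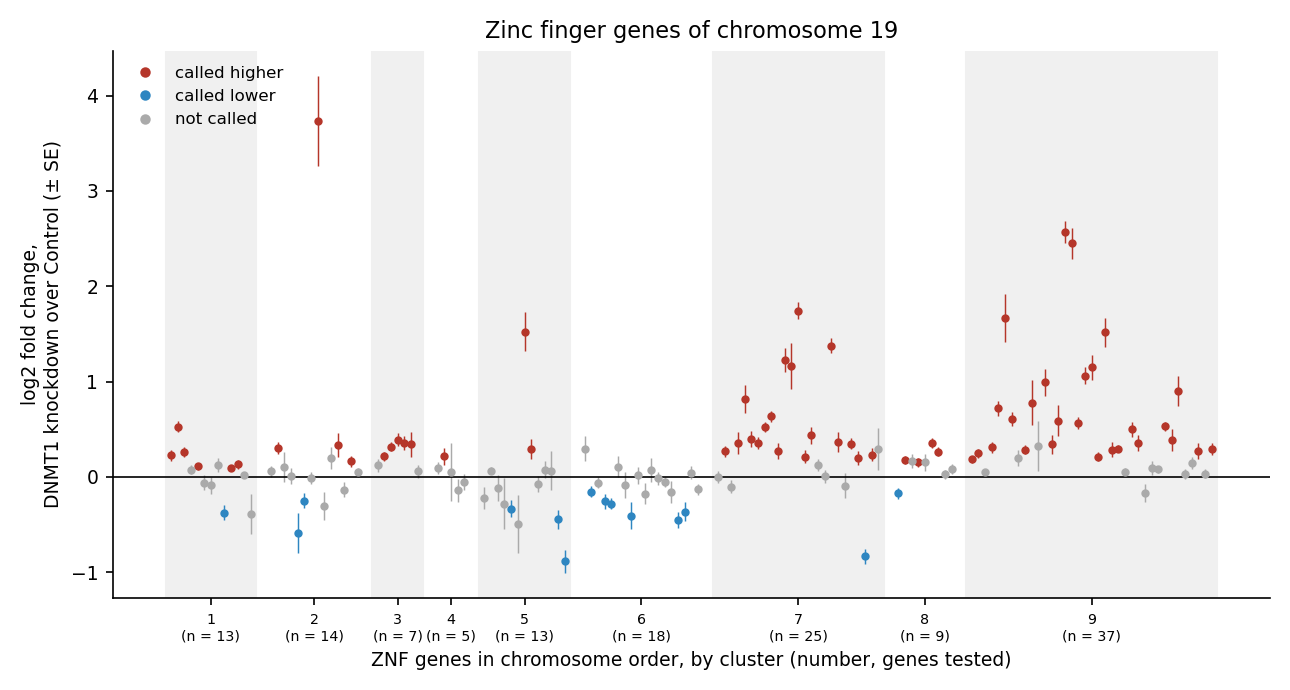
The log2 fold change of DNMT1 knockdown over Control, with its standard error, for tested ZNF genes of chromosome 19 in chromosome order, grouped into the 9 clusters and coloured by call. Red points (called higher) fill the seventh and last clusters, with 18 of 25 and 27 of 37 genes, and the sixth cluster has none.

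The direct test of the knockdowns showed which changes differed in size between them. It found 4047 genes higher (24.3%) and 3487 lower (20.9%) with DNMT1 knockdown than with DNMT3B knockdown. Among the abundant genes, TIAM1 differed by 1.37 ± 0.036 (SE), adjusted p = 5.7e-24 on the log2 scale, ADAM19 by 1.35 ± 0.035 (SE), adjusted p = 3.5e-24 and VCAN by 1.10 ± 0.038 (SE), adjusted p = 1.2e-20 (edgeR). For PDLIM5 and CRABP2 the difference was small beside the rise itself, 0.18 and 0.19. Among falls, NAV3 differed by -1.01 ± 0.049 (SE), adjusted p = 3.4e-17, while ARHGAP24, a GTPase-activating protein for RAC, read 12.1 ± 0.23 CPM with DNMT3B knockdown and 12.3 CPM with DNMT1 knockdown, a difference of 0.013 ± 0.071 (SE), adjusted p = 0.90. The knockdowns were compared with the same Control libraries, so their fold changes against Control are not independent.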

How the data were processed

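Per the submitters' processing notes, the authors used STAR, featureCounts and DESeq2 with GRCh38 (hg38), and they deposited raw read counts per gene symbol for 9 libraries. Aligner settings, annotation, strand and the treatment of multimapping reads are not stated there. Everything else was computed here with R 4.3.3. The 9 libraries were fitted in edgeR 4.0.16 (glmQLFit and glmQLFTest, TMM scaling, no block) after filterByExpr by group, which kept 16660 of 25886 genes. CPM values are counts over the TMM-scaled library size. Genes with an adjusted p below 0.05 (Benjamini-Hochberg, over every tested gene) were called. Size was tested with glmTreat at 1.2-fold, and the knockdowns against each other in the same fit. Depth was 18772187 to 33666224 counts per library, and with 3 libraries per group a single-gene permutation test cannot go below p = 0.1.

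The members and lists were chosen with earlier results of these data known. Genes were named as follows: DNMT1, DNMT3A, DNMT3B and UHRF1; per class of mean CPM (1 to 10, 10 to 100, 100 or more) the 6 largest called rises and falls without overlap; per list up to 3 called members in each direction with the smallest adjusted p and at least 2 CPM; and the 6 largest differences per direction between the knockdowns. Lists have no set test. Promoter windows and positions are from RefSeq (GRCh38.p14), which matched 25574 of the symbols. The alternatives were other scalings and filters, DESeq2 1.42.0, limma 3.58.1 (voom), a replicate block, thinned counts, the 2 groups alone, and leaving out each library. Some genes that the rule names are not reported here. Scripts were tested on simulated counts.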

Additional observations from a re-analysis of the deposited data

Results flagged for a closer look

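Each gene below was called against Control with DNMT1 knockdown and differed between DNMT1 and DNMT3B knockdown in edgeR's direct test, with the largest log2 differences (DNMT1 minus DNMT3B knockdown). On the positive side, MYH13 differed by 3.61, S100A4, a calcium-binding protein of motile cells, by 2.55 and ALDH1L1, a folate enzyme, by 2.53. S100A4 read 4.59, 3.58 and 4.75 CPM in Control, 18.7, 16.9 and 16.7 CPM with DNMT1 knockdown and 2.21, 3.50 and 3.29 CPM with DNMT3B knockdown. BST2, the virus-restricting protein tetherin, differed by 2.47, the glycerol and water channel AQP3 by 2.31 and DHRS2 by 2.29. AQP3 read 4.56, 5.10 and 4.40 CPM in Control, 14.2, 16.6 and 16.0 CPM with DNMT1 knockdown and 3.07, 3.23 and 3.14 CPM with DNMT3B knockdown. S100A4, BST2 and AQP3 had DNMT3B knockdown means below their Control means, at 3.00, 0.734 and 3.15 CPM. ALDH1L1 read 0.298, 0.186 and 0.161 CPM in Control, 2.93, 2.22 and 2.20 CPM with DNMT1 knockdown and 0.491, 0.538 and 0.268 CPM with DNMT3B knockdown.

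On the negative side, the membrane mucin MUC16 differed by -1.75, the syntrophin SNTG2 by -1.87, CAVIN2, of caveolae, by -1.94, the succinate receptor SUCNR1 by -2.04, the muscle filament gene DES by -2.10 and HKDC1, a hexokinase-like gene, by -2.22. MUC16 was the member called higher than Control, reading 0.597, 0.968 and 0.706 CPM in Control, 1.40, 1.11 and 2.04 CPM with DNMT1 knockdown and 5.52, 4.47 and 5.21 CPM with DNMT3B knockdown. SNTG2 read 2.00, 2.01 and 1.93 CPM in Control, 1.49, 0.895 and 1.08 CPM with DNMT1 knockdown and 4.54, 4.36 and 3.87 CPM with DNMT3B knockdown. The other four fell with DNMT1 knockdown while their DNMT3B knockdown means lay above Control: 2.78, 1.06 and 4.14 CPM for CAVIN2 in Control, DNMT1 and DNMT3B knockdown, and 1.03, 0.501 and 2.09 CPM for SUCNR1. The fall of HKDC1 against Control was not called with libraries thinned to equal depth (log2 -0.77).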

How the results depend on the processing

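Over 18 alternatives, 9 of which left out a library, none of the 364 called genes followed individually reversed its direction where it was tested. The number of changed genes was 6956, 5718 with DESeq2, 6951 with limma-voom, 6122 after thinning to the smallest library and 5737 to 7111 when 1 library was left out (higher 2966 to 3634, lower 2771 to 3477). Genes at least 2-fold lower numbered 43, but 28 when at least 1 CPM in 3 libraries was required and 72 with no low-count filter, because the set of weak genes tested differed. Leaving out 1 library gave 48 to 63 of these and 298 to 328 at least 2-fold higher, against 282. Genes past 1.2-fold ran from 1031 to 1290, the direct comparison from 6658 to 7602 genes, and the log2 fold change of DNMT1 from -0.88 to -0.85. Rises and falls were near balance in number, and which was more frequent varied: 3675 genes rose and 3250 fell without TMM scaling, 3453 and 3510 with DESeq2 size factors, 3388 and 3744 with no low-count filter, and 3248 and 3332 without Control replicate 2. With the replicate number as a replicate block 6796 genes changed (3424 higher, 3372 lower) and 7379 differed between the knockdowns. Deviations of same-numbered Control and DNMT1 knockdown libraries had correlations of 0.042, -0.00094 and 0.0012. Such values cannot show whether same-numbered libraries were prepared together, and the labels do not say. Of 427 named or listed genes followed individually, 364 were called; under some alternative 42 lost a call and 9 gained one. Depth limits the weakest genes: 3 counts were 0.0891 to 0.160 CPM.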
